A study of Mus musculus with 5 samples.

Results

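Histone deacetylases (HDACs) are enzymes that remove acetyl groups from lysines of histones and other proteins. Their zinc-dependent family was described here across the striatum of 5 mice on a single-colour mouse oligonucleotide array. The members were 10 genes, Hdac1 to Hdac9 and Hdac11, and a probe was counted as a member when its platform symbol, whatever the case, was one of these. This found 9 genes with 1 probe each, among 17710 named genes on 26423 probes. Hdac1 was not analysed here because no probe carried its symbol. The 3 HD_miR196a mice had both a transgene modelling Huntington's disease (HD) and a precursor of the microRNA miR-196a, and came from crossing the HD line with a miR-196a line. The 2 HD mice carried the HD transgene alone. In all 5 mice that transgene encoded GFP fused with HTT exon 1 of human origin, holding 84 CAG repeats, and a human ubiquitin promoter drove it, as one also drove the miR-196a precursor, so neither was limited to striatal neurons. All were FVB males aged 12 months, and the labels describe motor function as improved in the HD_miR196a mice and weak in the HD mice. Mice without the HD transgene were not analysed here, so no value says how HDAC transcripts change in HD itself.

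As background, class I enzymes (Hdac1, Hdac2, Hdac3 and Hdac8) are largely nuclear, and most of them work inside corepressor complexes such as SIN3, NuRD, CoREST and NCoR. Class IIa enzymes (Hdac4, Hdac5, Hdac7 and Hdac9) have little catalytic activity of their own, bind MEF2 transcription factors and move between nucleus and cytoplasm when kinases phosphorylate them. Hdac6 (class IIb) deacetylates tubulin and cortactin in the cytoplasm, and Hdac11 is the only class IV enzyme. Mutant huntingtin binds the acetyltransferase CBP, and HDAC inhibitors have been studied in HD models for that reason. The question of the comparison was whether HDAC transcripts differ in HD striatum when miR-196a is overexpressed.

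The mature mouse miR-196a-5p of RefSeq (GRCm38.p6) is shown because its overexpression separates the groups, with miR-196b-5p beside it because the same seed occurs in both. Capitals mark the seed, bases 2 to 8. The miR-196a-5p sequence lies on the plus strand at chr11:96265187-96265208 and again at chr15:102973365-102973386, and miR-196b-5p lies on the minus strand at chr6:52230129-52230150.
miR-196a-5p: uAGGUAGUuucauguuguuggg
miR-196b-5p: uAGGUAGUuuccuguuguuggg
Of the mature mouse miRNA names in that table, only these 2 had this seed, and they differed by A12C, counted from the 5′ end with the miR-196a-5p base first. Whether HDAC transcripts hold sites for this seed was not tested, and miR-196a levels were not analysed here.

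Promoter windows of RefSeq (GRCm38.p6), the 250 bases before an annotated start, matched 8 of the 9 measured genes with 12 windows. Those of Hdac2 and Hdac4 are shown because these genes had the lowest and the highest difference between the groups, and that of Hdac5 because it holds a MEF2 box, the element bound by the partners of class IIa enzymes. Capitals mark matches on either strand to the GC box, whose letters are GGGCGG, to the box named after its letters CCAAT, and to the MEF2 box, and none of these matches overlap in the windows shown. The Hdac2 window is the plus strand of chr10:36974294-36974543, and those of Hdac4 and Hdac5 are the minus strand of chr1:92180342-92180591 and chr11:102230173-102230422.
Hdac2: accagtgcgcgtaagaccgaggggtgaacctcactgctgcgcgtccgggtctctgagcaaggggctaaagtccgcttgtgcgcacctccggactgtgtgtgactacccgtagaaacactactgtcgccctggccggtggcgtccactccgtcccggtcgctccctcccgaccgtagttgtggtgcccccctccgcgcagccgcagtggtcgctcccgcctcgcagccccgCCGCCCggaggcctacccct
Hdac4: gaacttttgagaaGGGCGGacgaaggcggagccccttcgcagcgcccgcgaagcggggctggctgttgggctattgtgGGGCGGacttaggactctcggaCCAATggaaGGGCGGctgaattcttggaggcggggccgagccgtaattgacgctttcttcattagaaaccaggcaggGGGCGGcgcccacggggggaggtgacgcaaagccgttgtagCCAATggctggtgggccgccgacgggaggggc
Hdac5: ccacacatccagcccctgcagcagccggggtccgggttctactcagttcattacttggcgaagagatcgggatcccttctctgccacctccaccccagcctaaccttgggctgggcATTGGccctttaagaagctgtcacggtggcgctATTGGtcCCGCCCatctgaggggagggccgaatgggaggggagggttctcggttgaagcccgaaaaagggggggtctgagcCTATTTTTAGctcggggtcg
A GC box was found for 6 of the 8 genes, in 6 of their 12 windows, against 32.7% of all 32851 promoter windows. CCAAT boxes were found for 5 genes, in 5 windows, against 33.8% of all windows (both matches of Hdac8 overlap each other), and Hdac4 and Hdac6 each held 4 GC boxes and 2 CCAAT boxes. The MEF2 box was in the Hdac5 window alone among the 12, against 2.92% of all windows. A TATA box (TATAAA) was in 1 window of Hdac8 and 1 of Hdac9, against 12.4% of all windows. These matches are descriptions of the letters, and the array measured no binding at them.

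Each mouse had 1 deposited linear intensity per probe, with medians of 160.0 to 166.3 in HD_miR196a mice and 184.3 to 185.6 in HD mice. They were quantile normalized, floored at 1 and put on the log2 scale, and every difference is HD_miR196a minus HD. Differences were tested with limma over all probes, two-sided, with Benjamini-Hochberg adjustment, and an adjusted p below 0.05 was called. For dim signal, the 544 olfactory receptor probes served as a gauge, since such genes have little expression outside the nose. Their 95th percentile was 8.31, and all 9 HDAC probes had means above it, as had 10474 of all 26423 probes. Hdac9 was the dimmest member, at 8.64 to 8.97 over the 5 mice. The striatal markers Penk (enkephalin precursor), Drd1 (dopamine receptor) and Ppp1r1b (DARPP-32) ranged from 11.55 to 15.25 in HD_miR196a mice and from 10.96 to 14.76 in HD mice. The probe of Drd2, another defining striatal receptor, was at or near the floor in all 5 mice, at 2.04, 0.54 and 0.00 in HD_miR196a mice, against 0.14 and 1.64 in HD mice. In bulk tissue, fewer cells of a type and less RNA per cell cannot be told apart.

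No HDAC transcript was called different between the groups. The adjusted p was at least 0.979 for each of the 9 probes, and 0% of all 26423 probes were called. None of the 9 had an unadjusted p below 0.05, against 4.16% of all probes. Differences ran from -0.17 for Hdac2 to 0.22 for Hdac4, folds of 0.89 and 1.17, and 7 of the 9 were smaller than their own standard error, as were 63.1% of all probes. After quantile normalization the 95% interval lay within 1.5-fold in either direction for 6 genes, and reached beyond it, upwards only, for Hdac4, Hdac8 and Hdac11. With median centring 8 intervals lay within 1.5-fold, all but that of Hdac4. Without scaling 6 did, and those of Hdac2, Hdac9 and Hdac11 reached beyond it downwards. The bounds on a change thus depend on the scaling, and none shows that a member is unchanged.

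**Figure D1:**
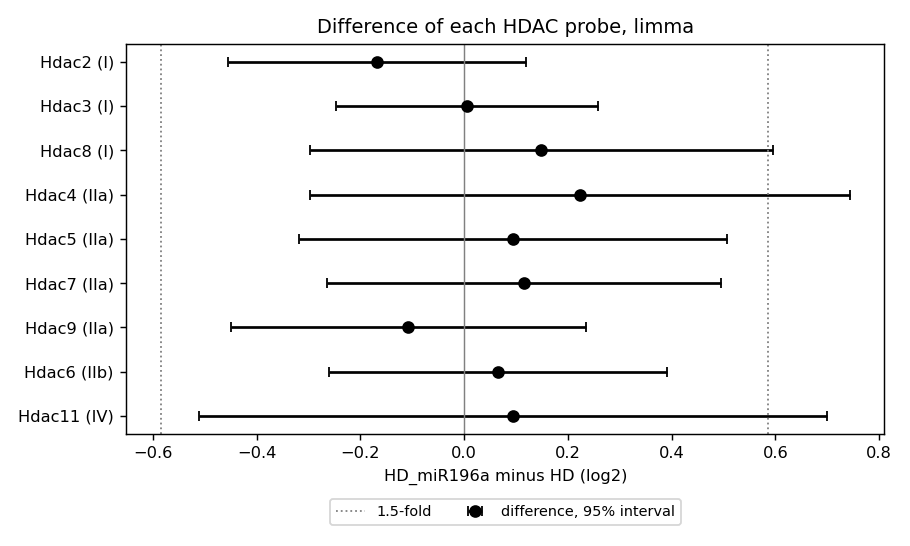
Difference of each of the 9 HDAC probes after quantile normalization, HD_miR196a minus HD on the log2 scale (x axis), with genes and their class down the page, the 95% limma interval as a bar and 1.5-fold as dotted lines. Every interval includes 0, and those of Hdac4, Hdac8 and Hdac11 end at 0.74, 0.60 and 0.70.

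Among class I enzymes, Hdac2, which restrains memory-related genes in mouse neurons, was the 1 member whose groups did not overlap. Its deposited intensities were 2625, 3162 and 3295 in HD_miR196a mice 1 to 3, against 3747.5 and 4248 in HD mice 1 and 2. After normalization it measured 11.57, 11.71 and 11.71 in HD_miR196a mice, against 11.74 and 11.92 in HD mice. All 3 HD_miR196a mice lay below both HD mice, though mouse 3 only narrowly below HD mouse 1, and the groups did not overlap at 20.3% of all probes either. The difference was -0.17 ± 0.11 (SE, 95% interval -0.45 to 0.12), the limma adjusted p was 0.979, and an exact two-sided permutation test over the 5 mice gave p = 0.1, the smallest its 10 splits allow. It stayed below 0 with each mouse left out, between -0.25 and -0.08.

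Hdac3, the catalytic subunit of the NCoR complex, varied least over the 5 mice, with a standard deviation of 0.06. It measured 10.20, 10.10 and 10.05 in HD_miR196a mice, against 10.14 and 10.08 in HD mice, so that the HD mice lay inside the range of the others. The difference was 0.01 ± 0.10 (SE), and its 95% interval, -0.25 to 0.26, was the narrowest of the 9. Hdac8, an X-linked class I enzyme that deacetylates cohesin and acts outside these complexes, measured 9.42, 9.17 and 9.06 in HD_miR196a mice, against 9.24 and 8.89 in HD mice. The groups overlapped and each held a high mouse 1, and the difference of 0.15 ± 0.17 (SE, 95% interval -0.30 to 0.60) became -0.02 without HD mouse 2.

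**Figure D2:**
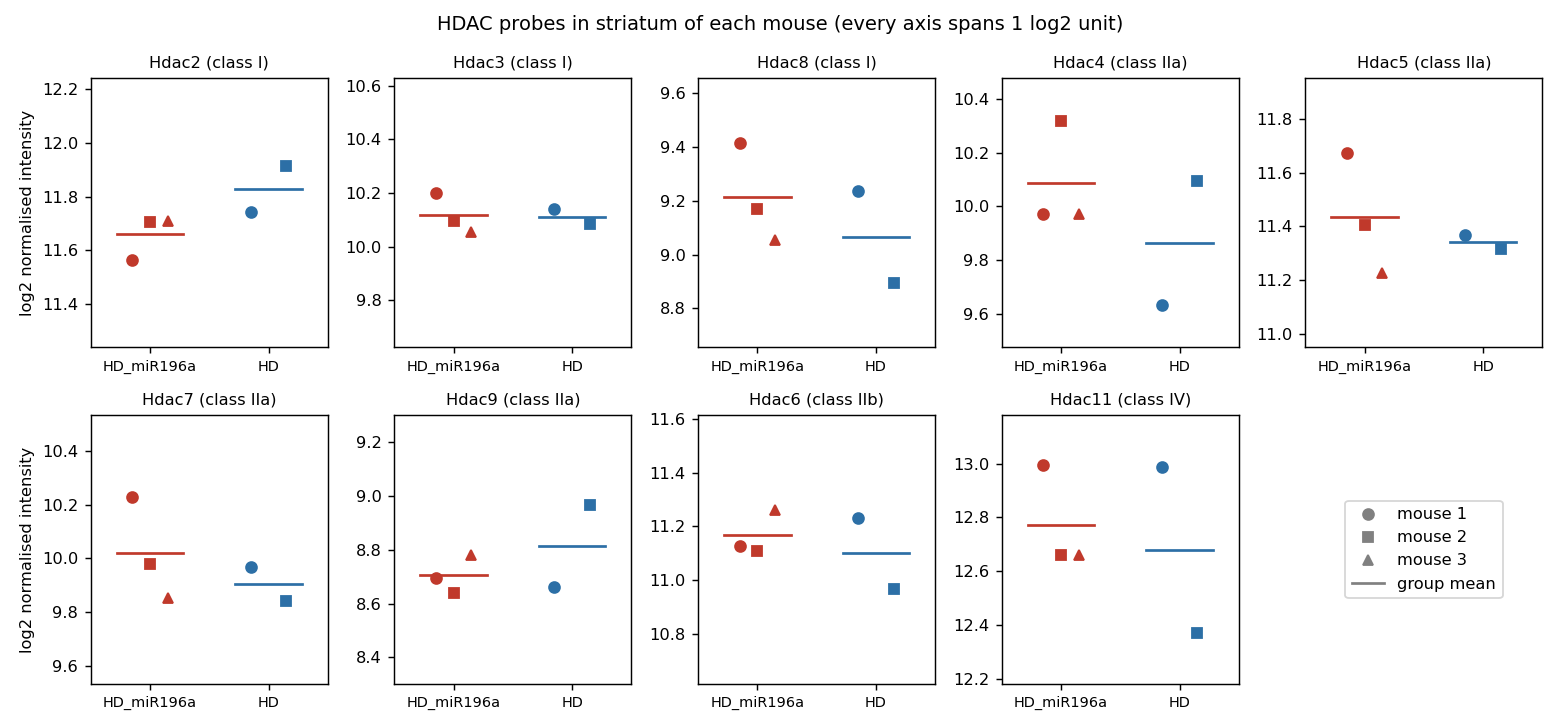
Log2 normalised intensity (y axis) of the 9 HDAC probes in each mouse, with HD_miR196a mice left of HD mice, symbols for the mouse number and a line at each group mean; every panel spans 1 log2 unit, and levels are not comparable between panels. Only for Hdac2 do all HD_miR196a mice lie on 1 side of both HD mice, and mouse 1 of each group is high for Hdac11, at 12.99 in both.

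Class IIa held the member with the highest difference, Hdac4, a MEF2 corepressor whose reduction has been studied in HD mice. Its intensities were 891, 1201 and 979.7 in HD_miR196a mice, against 872 and 1205 in HD mice. After quantile normalization the log2 values were 9.97, 10.32 and 9.97 in HD_miR196a mice, against 9.63 and 10.09 in HD mice. After normalization HD_miR196a mouse 2 was the highest of the 5, where the deposited value of HD mouse 2 was slightly higher, and HD mouse 1 was the lowest on both scales. The groups overlapped. The difference was 0.22 ± 0.20 (SE, 95% interval -0.30 to 0.74), and it was -0.01 without HD mouse 1.

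Hdac5, a close relative of Hdac4 that is abundant in brain, measured 11.67, 11.41 and 11.23 in HD_miR196a mice, against 11.37 and 11.31 in HD mice. The HD mice fell inside the wider range of the HD_miR196a mice, and the difference of 0.09 ± 0.16 (SE) became -0.03 without HD_miR196a mouse 1. Hdac7, best known from blood vessels and thymocytes, measured 10.23, 9.98 and 9.85 in HD_miR196a mice, against 9.97 and 9.84 in HD mice. Its HD_miR196a mouse 1 was again the highest, and the difference was 0.12 ± 0.15 (SE), between 0.01 and 0.20 with each mouse left out. Hdac9, which is known for repressing MEF2 targets in muscle, measured 8.70, 8.64 and 8.78 in HD_miR196a mice, against 8.66 and 8.97 in HD mice. HD mouse 2 was the highest of the 5, the difference was -0.11 ± 0.13 (SE), and without that mouse it was 0.05.

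Hdac6, the tubulin deacetylase, measured 11.13, 11.11 and 11.26 in HD_miR196a mice, against 11.23 and 10.97 in HD mice. HD mouse 2 was the lowest of the 5, and the difference was 0.07 ± 0.12 (SE), or -0.07 without that mouse. Hdac11, which is expressed in neurons and oligodendrocytes, varied most over the 5 mice, with a standard deviation of 0.26 on the log2 scale. Its deposited intensities were 6986, 6103 and 6427 in HD_miR196a mice, against 8987 and 5912 in HD mice. After quantile normalization the log2 values were 12.99, 12.66 and 12.66 in HD_miR196a mice, against 12.99 and 12.37 in HD mice. HD mouse 1 was the highest as deposited and close to HD_miR196a mouse 1 after normalization, HD mouse 2 was the lowest on both scales, the groups overlapped, and the difference was 0.09 ± 0.23 (SE). That difference was -0.01 without HD_miR196a mouse 1 and -0.22 without HD mouse 2.

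By class, the median difference was 0.01 over the 3 class I genes measured and 0.10 over the 4 of class IIa. Over all 9 members 7 were higher and 2 lower in HD_miR196a mice, against 49.3% higher and 50.5% lower among all probes, with a median of 0.09 beside 0.00 for all probes. The median size of a difference, whatever its sign, was 0.11 for the members and 0.12 for all probes. The median of the members turned to -0.01 without HD_miR196a mouse 1 and to -0.02 without HD mouse 2, and their median difference is given with no test.

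The direction of most members depended on how the arrays were scaled. Without any scaling, the median difference over all probes was -0.20 on the log2 scale, because deposited intensities were lower in HD_miR196a mice. All 9 members were lower there, as were 83.1% of all probes. The groups then did not overlap for Hdac2, Hdac3, Hdac5 and Hdac9, all lower in HD_miR196a mice, against 38.1% of all probes that were lower in this way. Hdac2 had an unadjusted p of 0.0416 on the unscaled values, with a difference of -0.41 ± 0.15 (SE, adjusted p = 0.362, limma), where 13.8% of all probes had an unadjusted p below 0.05. With each array centred on its median, 5 members were higher and 4 lower, where 44.0% of all probes were higher and 55.8% lower, and Hdac3 and Hdac6 changed sign, to -0.05 and -0.01. Hdac2 alone then had groups that did not overlap, lower in HD_miR196a mice as were 12.6% of all probes. Relative to the median difference over all probes, that of Hdac2 was at -0.17 after quantile normalization, -0.21 after median centring and -0.21 without scaling. In the same order, Hdac9 was at -0.11, -0.11 and -0.11, and Hdac4 at 0.23, 0.19 and 0.19. Median centring shifts all probes of an array above the floor by the same log2 amount. Its differences relative to the median difference over all probes therefore nearly repeat the unscaled ones by construction, and are no separate check. Only Hdac3 changed sides of that median difference, from 0.01 to -0.03 and -0.03, and every other member kept its side under these 3 scalings.

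**Figure D3:**
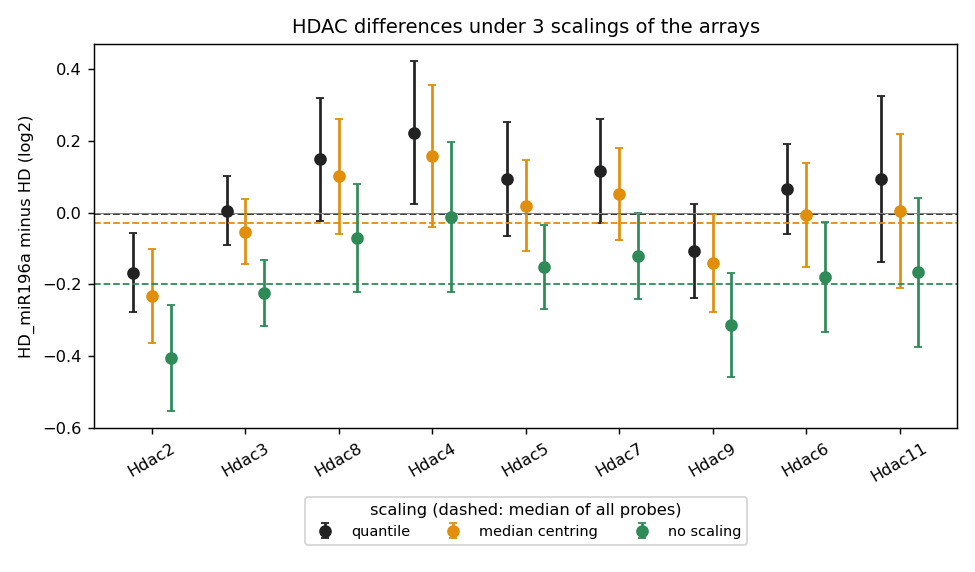
Difference of each HDAC probe, HD_miR196a minus HD on the log2 scale (y axis), after quantile normalization, median centring and no scaling; bars are limma standard errors, and dashed lines give the median of all probes under each scaling. Without scaling all 9 points fall below 0, around an all-probe median of -0.20.

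The extremes of several members fell in the same mice. HD_miR196a mouse 1 was the highest of the 5 for 5 members (Hdac3, Hdac5, Hdac7, Hdac8 and Hdac11), and HD mouse 2 was the lowest for 4 (Hdac6, Hdac7, Hdac8 and Hdac11) and the highest for Hdac2 and Hdac9. The mean of 14 measured oligodendrocyte markers of 15 listed was 11.88, 11.50 and 11.24 in HD_miR196a mice 1 to 3, against 11.50 and 11.07 in HD mice 1 and 2, and 13 of the 14 were higher in HD_miR196a mice, with 0 called. HD_miR196a mouse 1 was the highest, and HD mouse 2 the lowest, for that list and for 2 others of the 8 marker lists. Striatal interneuron markers had a mean of 10.14, 9.38 and 9.87 in HD_miR196a mice, against 10.04 and 9.23 in HD mice. Choroid plexus and ependyma markers had a mean of 8.33, 8.06 and 8.00 in HD_miR196a mice, against 7.81 and 7.70 in HD mice. As list means, these extremes were therefore not particular to oligodendrocyte markers, but not every gene followed its list. Ttr, of the choroid plexus list, measured 10.64 in HD_miR196a mouse 1, against 7.09 and 7.32 in mice 2 and 3. HD mice had 7.41 and 7.70 for it, and 4 of the 9 genes of that list had means above the olfactory receptor percentile. Sst, an interneuron marker, measured 14.76, 15.12 and 15.10 in HD_miR196a mice, against 14.74 and 15.21 in HD mice. None of the oligodendrocyte markers was at the floor, and Mbp, myelin basic protein, measured 14.72, 14.60 and 14.65 in HD_miR196a mice, against 14.41 and 14.24 in HD mice.

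Cortical projection neuron markers had a mean over 14 of 15 listed genes of 8.65, 10.23 and 10.02 in HD_miR196a mice, against 8.85 and 10.53 in HD mice. Whether their signal came from cortical tissue was not tested. Mouse 1 of each group was low in the cortical mean, though not in every gene, as Kcnh7 was highest in HD_miR196a mouse 1, at 9.08. Slc17a7, the cortical vesicular glutamate transporter, measured 8.47, 11.76 and 11.05 in HD_miR196a mice, against 8.82 and 11.87 in HD mice. Of the other marker lists, microglia means ran from 10.51 to 10.64 in HD_miR196a mice and from 10.56 to 10.65 in HD mice. The endothelium and pericyte list averaged 8.93 over HD_miR196a mice and 8.84 over HD mice. Medium spiny neuron means ran from 10.69 to 11.20 in HD_miR196a mice and from 10.79 to 11.15 in HD mice, with Foxp2 at the floor in HD_miR196a mouse 1. That probe measured 8.94 to 9.84 in the other mice, so the low list mean of HD_miR196a mouse 1 rests on it. Of the medium spiny neuron list 12 of 16 genes were higher in HD_miR196a mice, 8 of them without overlap against 9.96% of all probes, and 0 were called. The median difference of that list was 0.30, beside 0.25 for the oligodendrocyte list. The brightest markers per list were Mbp, Penk, Lmo4 (cortical), Sst (interneuron), Aldoc (astrocyte), C1qa (microglia), Vtn (vessel) and Rarres2 (choroid plexus and ependyma). The astrocyte mean was 12.40 to 12.60 in HD_miR196a mice, against 11.08 and 12.45 in HD mice, with the Slc1a3 probe at the floor in HD mouse 1. Gfap, the astrocyte filament, measured 8.79, 8.09 and 8.71 in HD_miR196a mice, against 8.99 and 9.20 in HD mice.

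With the oligodendrocyte mean as a covariate, chosen after seeing the data, the differences of Hdac8, Hdac5, Hdac7 and Hdac11 became -0.02, -0.04, -0.01 and -0.12, and that of Hdac2 became -0.09. Hdac4 then differed by 0.32, and no member was called. With the cortical mean as a covariate the 9 differences ran from -0.16 for Hdac2 to 0.23 for Hdac4, with the same signs as without it. The cortical mean averaged 9.63 over HD_miR196a mice and 9.69 over HD mice. A covariate so level between the groups could move these differences little, so the kept signs are no separate check. Without mouse 1 of each group, Hdac11 differed by 0.29, Hdac6 by 0.22, Hdac2 by -0.20 and Hdac9 by -0.26, again with none called. No covariate fit was made with the medium spiny neuron, interneuron or choroid plexus means. Whether a change in cell composition sets any HDAC value was not tested beyond these fits.

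**Figure D4:**
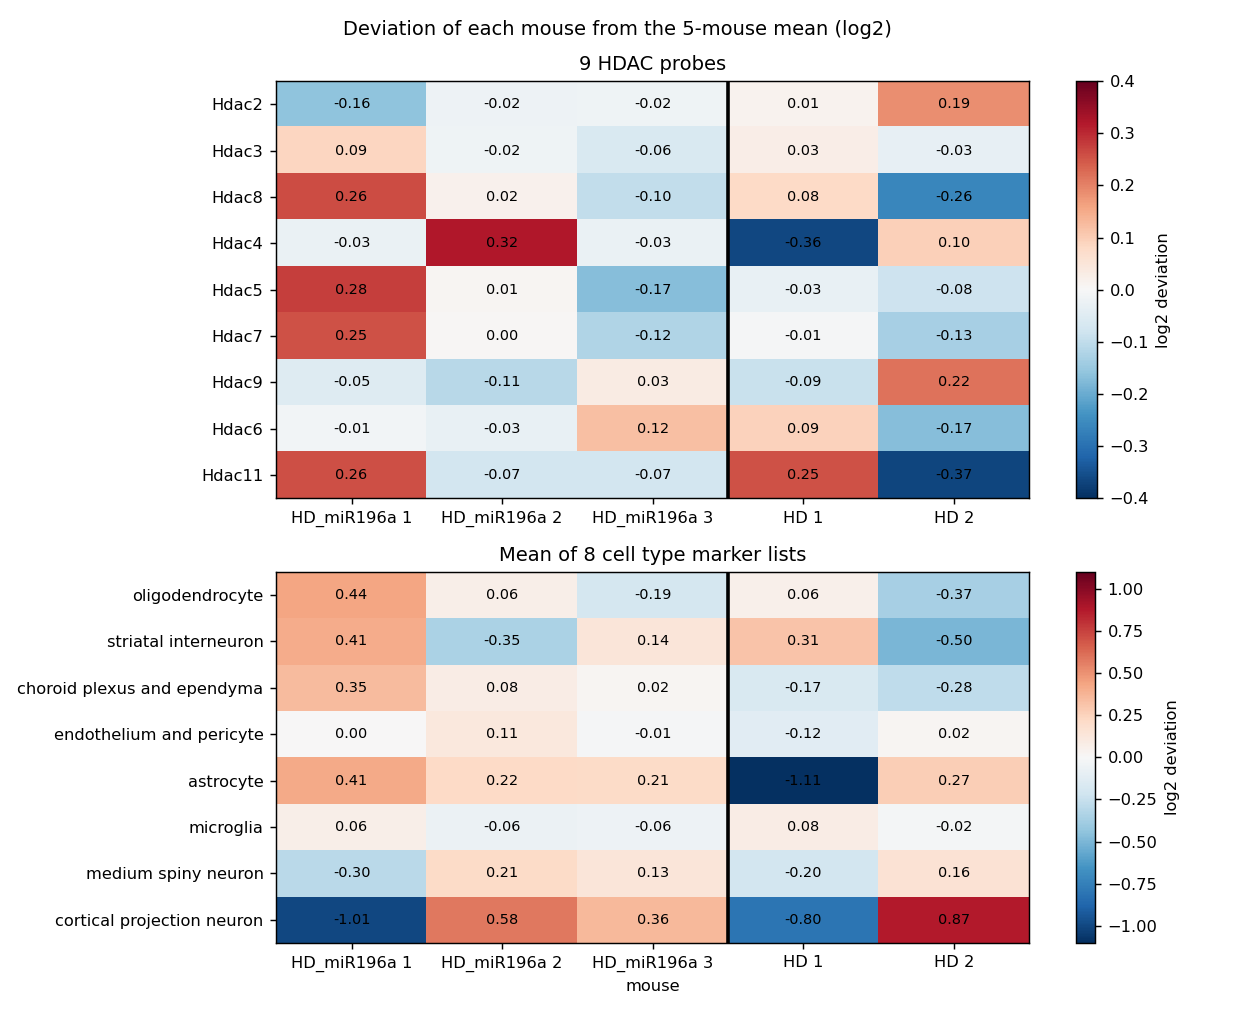
Deviation of each mouse from the 5-mouse mean on the log2 scale, for the 9 HDAC probes (top) and the mean of 8 cell type marker lists (bottom), with mice as columns, HD_miR196a left of the line and HD right of it; the colour scales of the panels differ. Hdac8 and the oligodendrocyte, striatal interneuron and choroid plexus lists are all highest in HD_miR196a mouse 1 and lowest in HD mouse 2.

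Other genes of histone acetylation were taken from 6 lists of 101 genes, 82 of them measured, and none was called (0% of all probes). Sirtuins, the deacetylases that need NAD, were higher for 4 of 7 and lower for 3, with a median of 0.05. Their groups did not overlap for 2 genes that were higher, Sirt7 and Sirt6, and 1 that was lower, Sirt1, against 9.96% and 10.3% of all probes, and Sirt6 and Sirt1 had means below the olfactory receptor percentile. Sirt7, a nucleolar sirtuin, measured 11.24 ± 0.14 in the HD_miR196a group (SD, n = 3) and 10.90 ± 0.05 in the HD group (SD, n = 2). Sirt1, its nuclear relative, measured 7.98 ± 0.06 in HD_miR196a mice, against 8.21 ± 0.00 in HD mice, and mitochondrial Sirt4 measured 10.01 ± 0.27 in HD_miR196a mice, against 9.67 ± 0.24 in HD mice. Each of these had a limma adjusted p of 0.979.

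Subunits of the complexes that hold class I enzymes were mixed: 15 of 32 measured higher and 17 lower in HD_miR196a mice (median -0.04). Their groups did not overlap for 2 genes that were higher and 6 that were lower, against 9.96% and 10.3% of all probes. Sap30, which links SIN3 to its deacetylases, measured 10.25, 10.50 and 10.84 in HD_miR196a mice, against 10.91 and 11.00 in HD mice. Arid4a, another SIN3 complex subunit, measured 8.51 ± 0.06 in the HD_miR196a group (SD, n = 3) and 8.84 ± 0.19 in the HD group (SD, n = 2). Rcor3, of the CoREST family, measured 6.50 ± 0.06 in HD_miR196a mice, against 6.74 ± 0.02 in HD mice, below the olfactory receptor percentile. All 3 lay lower in every HD_miR196a mouse, and their limma adjusted p-values were 0.979. They were named for the smallest p or the largest difference in the list, a choice that favours such separation. The 2 subunits that were higher without overlap were Sin3b, with a difference of 0.24, and Mbd3, with 0.10.

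MEF2 factors, kinases and other partners of class IIa enzymes were higher for 11 of 15 measured genes, with a median of 0.07. Sik1, a kinase of class IIa enzymes, measured 7.87, 7.70 and 8.52 in HD_miR196a mice, against 8.40 and 8.51 in HD mice, with a mean below the olfactory receptor percentile. Camk2b, a calmodulin-dependent kinase, measured 13.29 ± 0.07 in HD_miR196a mice, against 13.12 ± 0.22 in HD mice. Mef2b, at 5.44 ± 0.12 in HD_miR196a mice, against 5.27 ± 0.14 in HD mice, lay below the olfactory receptor percentile. Hdac6 substrates and partners were lower for 9 of 10 genes, with a median of -0.08, and their groups did not overlap for 4, all lower, against 10.3% of all probes. Cttn, which encodes cortactin, measured 11.08 ± 0.03 in the HD_miR196a group (SD, n = 3) and 11.22 ± 0.06 in the HD group (SD, n = 2). The peroxiredoxin Prdx1 measured 7.78 ± 0.21 in HD_miR196a mice, against 8.05 ± 0.02 in HD mice, and Plaa, a partner of the segregase VCP, 4.96 ± 0.15 in HD_miR196a mice, against 5.11 ± 0.15 in HD mice, both below that percentile.

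Acetyltransferases, which oppose HDACs, were lower for 8 of 10, with a median of -0.06, and bromodomain readers of acetylated lysines were lower for 7 of 8, with a median of -0.08. Ep300, the p300 acetyltransferase, measured 8.68 ± 0.08 in the HD_miR196a group (SD, n = 3) and 8.84 ± 0.12 in the HD group (SD, n = 2). The coactivator Ncoa1 measured 10.97 ± 0.11 in HD_miR196a mice, against 11.13 ± 0.17 in HD mice, and the TFIID subunit Taf1 7.30 ± 0.25 in HD_miR196a mice, against 7.54 ± 0.26 in HD mice, the Taf1 mean being below the olfactory receptor percentile. Of the readers, Brpf1 measured 8.94 ± 0.24 in HD_miR196a mice, against 9.14 ± 0.11 in HD mice, Bptf 8.89 ± 0.20 in HD_miR196a mice, against 9.08 ± 0.29 in HD mice, and Brd1 10.44 ± 0.10 in HD_miR196a mice, against 10.55 ± 0.06 in HD mice. No test of a list was made, and beside the 50.5% of all probes that were lower these counts are descriptions. Over the alternatives run, the median stayed below 0 for Hdac6 partners, acetyltransferases and bromodomain readers, and took both signs for the other 3 lists.

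**Figure D5:**
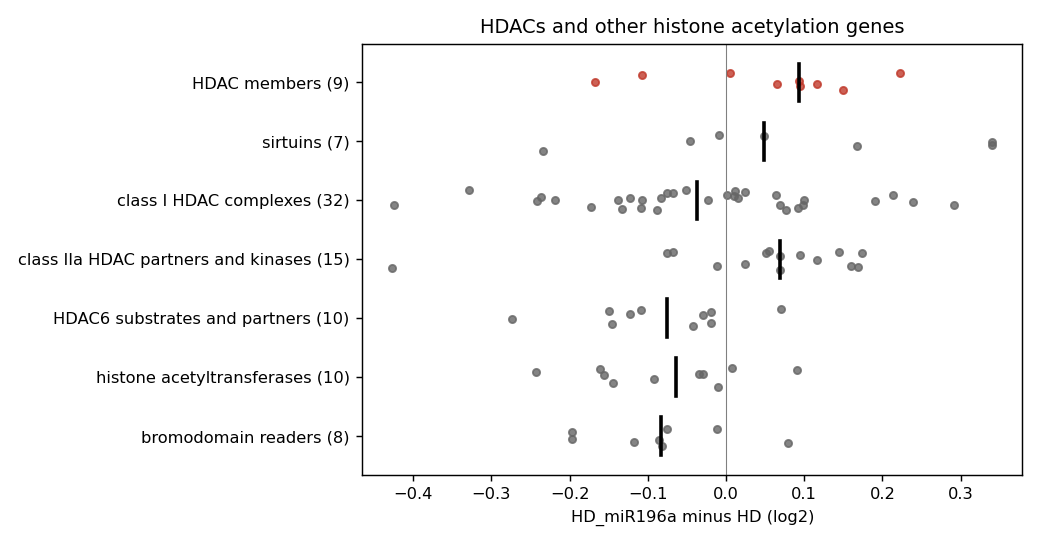
Difference of each measured gene, HD_miR196a minus HD on the log2 scale (x axis), for the 9 HDAC members and 6 lists of other histone acetylation genes (number of genes in brackets), with a bar at each median; vertical scatter carries no meaning. The median is 0.09 for the HDAC members and -0.08 for the bromodomain readers.

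The 3 members that varied most over the mice were compared with the 82 list genes, each probe centred on its own mean. Hdac11 was nearest to Prkd3, a protein kinase D, with a root-mean-square difference of 0.07 on the log2 scale over the 5 mice, then to Arid4b (0.12) and Sirt5 (0.14). Hdac4 was nearest to Brms1 (0.05), Camk2b (0.10) and Rcor2 (0.11), and Hdac8 to Rfxank (0.10), Arid4b (0.10) and Atat1 (0.10). Of these genes, Arid4b and Rcor2 had means below the olfactory receptor percentile. The profiles of Hdac11 and Prkd3 were both high in mouse 1 of either group and lowest in HD mouse 2, and those of Hdac4 and Brms1 were highest in HD_miR196a mouse 2 and lowest in HD mouse 1. With 5 mice and 82 candidates, such likeness is a description only.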

How the data were processed

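The deposited file holds linear intensity values, of which 312 to 370 per mouse are below 1, some negative. Amplified RNA carried Cy5, per the labels' protocols, and the authors combined 2 technical repeats of each mouse, so the mouse is the replicate. The scanner, the software and any scaling are not stated in the labels. Column medians differed, so values were quantile normalized, floored at 1 and put on the log2 scale from the deposited values. All 26423 probes were fitted with limma 3.58.1 in R 4.3.3 (3 residual and 1.75 prior degrees of freedom). The fit was also run on simulated independent normal values, without array-wide shifts or effects shared by the probes of a mouse. The differences planted there were larger than any HDAC difference found here, so that run does not show how well differences of this size are found. The number of arrays limits the precision. Of 20377 probes with a platform symbol, 18213 matched RefSeq GRCm38.p6 symbols directly, 2126 through a synonym and 38 not at all, and 6046 had none. The brightest probe stood for each gene. Whether a probe also binds a paralog's transcript was not tested. The members, lists and tests were chosen with earlier results of these data known. Named were all members, in each list the 2 genes with the smallest p and the 2 with the largest difference, the 3 list genes most like each of the 3 most variable members, and the brightest gene of each marker list with Penk, Ppp1r1b, Drd1, Slc17a7, Mbp and Gfap. Sirt6, Sin3b, Mbd3, Ttr and Kcnh7, and Drd2, Foxp2 and Slc1a3 at or near the floor, were added after their values were seen. Alternatives changed the scaling, floor, filter, variance model, weights, covariates and mice.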

Additional observations from a re-analysis of the deposited data

How the results depend on the processing

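No HDAC probe and no gene of the 6 other lists was called under any of the 16 alternative settings. The floor, both brightness filters and the trend and robust setting left each difference as it was. Under the other 12 settings, 83 of 108 gene values kept their sign and 25 changed it, with no call in either fit. Among these 12, a block for the replicate number nearly repeats the fit without HD_miR196a mouse 3. The cortical covariate, nearly level between the groups, could move the differences little. Signs changed with median centring for Hdac3 (-0.053) and Hdac6 (-0.0064). Without scaling they changed for Hdac3 (-0.23), Hdac8 (-0.071), Hdac4 (-0.013), Hdac5 (-0.15), Hdac7 (-0.12), Hdac6 (-0.18) and Hdac11 (-0.17). With the oligodendrocyte covariate they changed for Hdac3 (-0.047), Hdac8 (-0.016), Hdac5 (-0.040), Hdac7 (-0.013) and Hdac11 (-0.12), and without mouse 1 of each group for Hdac3 (-0.0070) and Hdac5 (-0.0017). With 1 mouse left out the ranges were -0.036 to 0.036 for Hdac3, -0.022 to 0.32 for Hdac8, -0.0090 to 0.45 for Hdac4, -0.026 to 0.20 for Hdac5, -0.26 to 0.045 for Hdac9, -0.067 to 0.20 for Hdac6 and -0.22 to 0.40 for Hdac11. Hdac2 kept its sign in every setting run, from -0.41 to -0.08. The median of the members was 0.0057 with median centring, -0.17 without scaling, -0.030 with the oligodendrocyte covariate and -0.022 to 0.15 with 1 mouse left out. A fit without an HD mouse assumes that the lone HD mouse varies like the other group. The count of 0 called probes over the array became 2 with values floored at the median olfactory receptor probe, 1 among the brightest 75% of probes, 3 with trend and robust settings and 0 to 3 with 1 mouse left out. The cause of these shifts was not tested. Probes at an unadjusted p below 0.05, 1099 after quantile normalization, numbered 3641 without scaling, 528 among the brightest 50%, where fewer were tested, and 2020 with the replicate block.

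The numbers 1 and 2 occur in both groups, and deviations of equal-numbered mice had correlations of 0.24 and 0.17 across probes, which are not independent replicates. With 2 shared numbers these do not show that the mice were paired. With the replicate block the median of the members was 0.15, Hdac4 differed by 0.28 and Hdac2 by -0.19, and 0 probes were called. HD_miR196a mouse 3 has no HD mouse of its number, so it adds nothing to the group difference in that fit. The block therefore nearly repeats the differences without that mouse, also 0.15, 0.28 and -0.19, and is no separate check. Each member had 1 probe, so probes of 1 gene could not be set against each other and averaging them changes nothing.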

Other observations

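Hdac10, a class IIb relative of Hdac6 known as a polyamine deacetylase, is outside the 10 listed members but has a probe. It measured 8.05, 8.28 and 7.97 in HD_miR196a mice, against 7.71 and 8.16 in HD mice, which put its mean under the olfactory receptor gauge. The groups overlapped, and the difference was 0.16 ± 0.18 (SE, limma adjusted p = 0.979).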
